A study of Mus musculus with 6 samples.

Results

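The genes described here were the chemokine ligands and receptors of mouse gonadal white adipose tissue (gWAT), the fat depot around the gonads. Members were taken by symbol: the Ccl and Cxcl ligands, the Ccr and Cxcr receptors, Xcl1, Xcr1, Cx3cl1, Cx3cr1, Pf4, Ppbp and the atypical receptors Ackr1 to Ackr4. This gave 61 of the 19790 genes in the table, namely 23 CC ligands, 14 CXC ligands, 2 ligands of the C and CX3C kinds, 18 receptors and 4 atypical receptors. RNA-seq was carried out on wild-type C57BL/6 mice, male by the methods of the study, that ate a normal chow diet (NCD) or a high-fat diet (HFD) for 8 weeks, with 3 biological replicates per diet. No transgene, drug or deletion was involved. The labels put the start of the diets at 6 weeks of age, whereas the methods give a later age. A replicate is called a mouse below, although the labels do not say whether a library came from 1 animal or from a pool.

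Chemokines are small secreted proteins that attract leukocytes. They are classed as CC, CXC, C or CX3C by the spacing of the cysteines near their amino terminus, and they act through receptors that couple to inhibitory G proteins, whereas the atypical receptors bind ligand without that coupling and take it up or carry it. In expanding fat, the Ccl2 and Ccr2 pair is best known for bringing blood monocytes into the tissue, where they become macrophages, and Cxcr2 with its CXC ligands is best known for drawing neutrophils.

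The libraries held 49575113 to 66360046 counts. NCD replicate 1 stood apart, because 11 secretory genes of the seminal vesicle, a gland that lies beside this fat depot in males, took 58.6% of its counts, against 11.2% in NCD replicate 2, 2.30% in NCD replicate 3 and 2 to 8 counts in all in each HFD mouse. Adipocyte markers were present in every library: the summed level of Adipoq, Plin1, Lep, Cidec, Pparg and Lipe was 1902, 7492 and 9872 CPM (counts scaled to a fixed library total) in NCD replicates 1, 2 and 3 and 7606, 5821 and 4086 CPM in HFD replicates 1, 2 and 3. All CPM values here were scaled by TMM, which adjusts library sizes to the bulk of genes. In every list of 6 values below, the NCD mice come first and the HFD mice second, each in the order of replicates 1, 2 and 3. In bulk tissue, fewer cells of a type and less RNA per cell cannot be told apart.

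The promoters of Cxcl1, Cxcl2 and Cxcl3 are shown because these neighbouring genes had some of the steepest differences between mice, described below. Each line gives the 120 bases before the start of the gene, from RefSeq on GRCm38.p6, plus strand, at chr5:90785981-90786100 for Cxcl3, chr5:90891125-90891244 for Cxcl1 and chr5:90903779-90903898 for Cxcl2. The capitals mark an 11-base stretch that was the same in all 3 genes and holds 2 overlapping matches to the consensus of NF-kappaB, a transcription factor of inflammatory signalling.
Cxcl3: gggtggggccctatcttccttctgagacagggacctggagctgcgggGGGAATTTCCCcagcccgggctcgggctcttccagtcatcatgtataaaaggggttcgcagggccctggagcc
Cxcl1: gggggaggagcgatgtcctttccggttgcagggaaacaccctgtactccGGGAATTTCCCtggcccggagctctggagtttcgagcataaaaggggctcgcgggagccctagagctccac
Cxcl2: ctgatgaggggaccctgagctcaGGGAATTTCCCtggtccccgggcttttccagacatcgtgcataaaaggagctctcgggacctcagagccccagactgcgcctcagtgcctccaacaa
The stretch began 73 bases before the start in Cxcl3, 71 bases before it in Cxcl1 and 97 bases before it in Cxcl2. It was present in the promoters of 14 of 27025 genes (0.0518%), searched on both strands over the 250 bases before the start. The NF-kappaB consensus itself was matched in 8 of the 46 members that had a promoter in the reference table (17.4%), which were Cxcl1, Cxcl2, Cxcl3, Cxcl10, Ccl9, Ccr3, Ccr6 and Ackr2, against 4.46% of all genes. A match of letters is a description of the window and does not show binding.

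With HFD, 8 of the 53 members that could be tested rose and none fell (edgeR quasi-likelihood test, adjusted p below 0.05 over 15241 genes). Among them were the CC ligands Ccl2, Ccl3, Ccl6, Ccl9 and Ccl22 and the receptors Ccr1 and Ccr2. The 8 made up 15.1% of the members tested, where 5.58% of all genes tested were higher and 1.9% were lower on HFD. The median log2 fold change of the members tested was 0.80, and that of all genes tested was -0.08. At an unadjusted p under 0.05 there were 28 members, of which Ccl21a, Ccl21b and Ccl27a were lower, where 29.7% of all genes tested were under that p in either direction. DESeq2 called 26 members, all 8 among them, of which 24 were higher and 2, Ccl21b and Ccl27a, were lower, where it called 14.1% of all genes as higher and 11.5% as lower.

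Without NCD replicate 1, 13 of 55 members rose and none fell, where 10.7% of all genes were higher and 10.1% were lower. All 8 members stayed past the threshold, and Ccl11, Cxcl16, Pf4, Cxcr4 and Ccr3 passed it as well. The pass of Ccr3 is a description and not a test, because the filter on low counts kept it only through the HFD mice. The median log2 fold change was then 1.05 for the members and 0.02 for all genes. The calls also rested on each of the remaining mice, since omitting any single animal besides that one left no member past the adjusted threshold of edgeR. Few genes of any kind passed it in those fits, with 2 called in the whole table without NCD replicate 2, NCD replicate 3 or HFD replicate 1, 7 without HFD replicate 2 and 4 without HFD replicate 3. The 8 members kept their direction there, and the log2 fold change of Ccl2 ran from 3.09 to 3.92. An unadjusted p under 0.05 was then found for 25 and 29 of 55 members without NCD replicates 2 and 3, beside 24.7% and 27.6% of all genes. It was found for 30 of 55, 21 of 53 and 21 of 53 members without HFD replicates 1, 2 and 3, beside 22.8%, 20.1% and 19% of all genes. Where 55 members were tested, Cxcl3 and Cxcr1 had entered only through HFD libraries in which they were high. Both are among the 30, and they are no test of the difference from all genes.

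The diets did not overlap for 25 of the 53 members. In 22 of them (41.5%) all HFD mice lay above all NCD mice, where 20.5% of all genes tested did so, and in 3 (5.66%) all HFD mice lay below, where 18.7% of all genes did so. The 3 lower members were Ccl21a, Ccl21b and Ccl27a. Of the HFD mice, HFD replicate 1 was the lowest for 40 of the 53 members, and HFD replicate 3 was the highest for 36. The same was not counted over all genes, so this order cannot be called particular to the members.

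**Figure D1:**
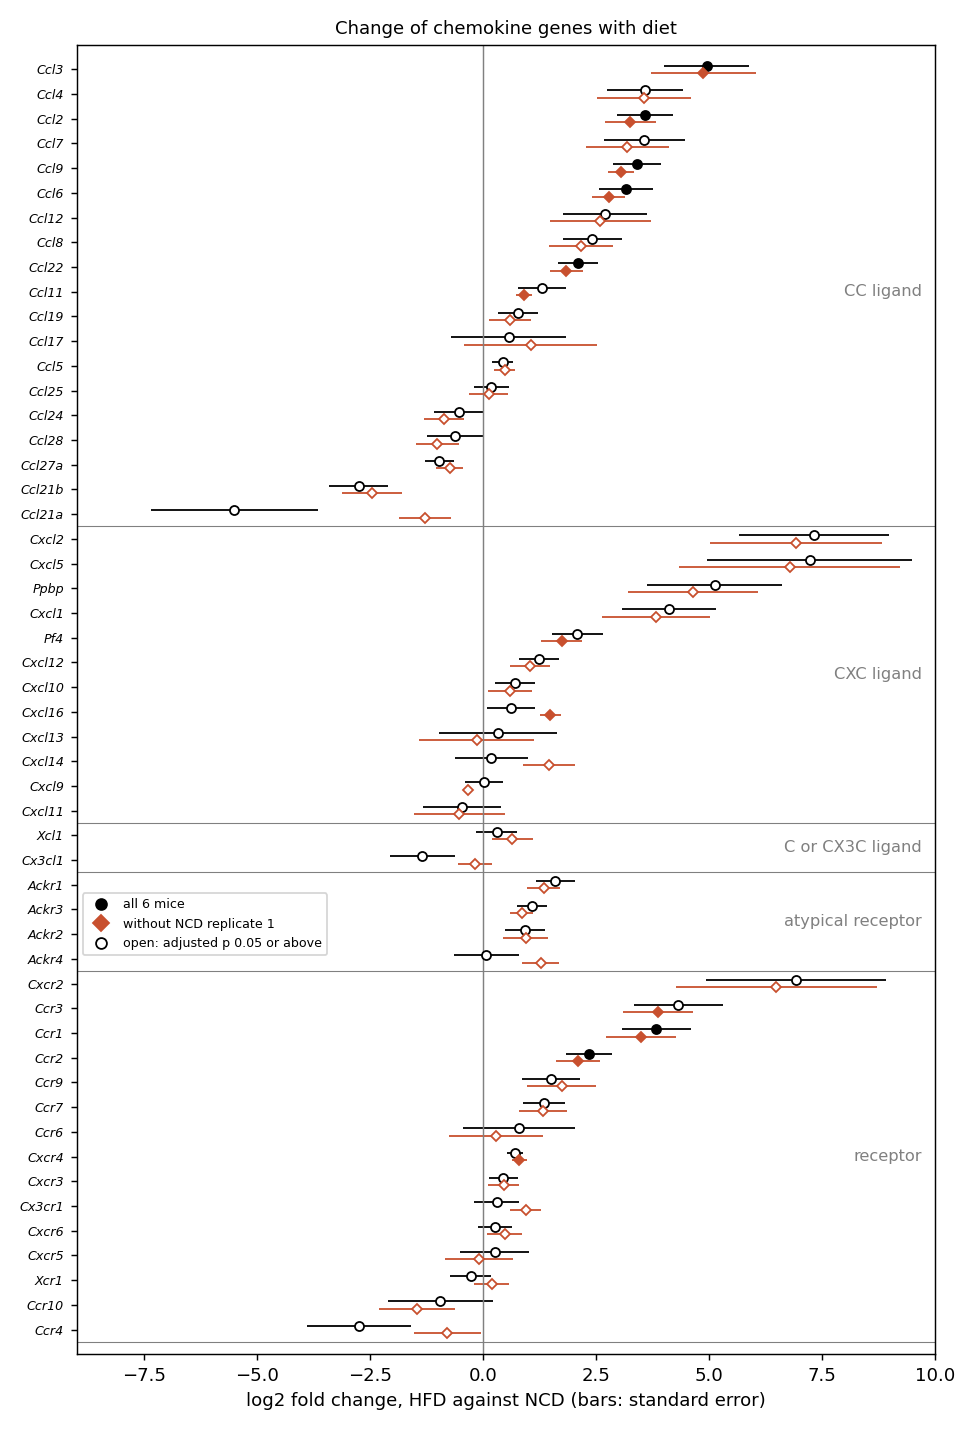
The plot gives the log2 fold change, HFD against NCD, with its standard error for the chemokine genes described here, in all 6 mice (black circles) and without NCD replicate 1 (red diamonds), with filled symbols for an adjusted p below 0.05. The filled black circles lie between 2.096 for Ccl22 and 4.94 for Ccl3. In all 6 mice the widest error bars belong to Cxcl5, Cxcr2 and Ccl21a, and without NCD replicate 1 to Cxcl5, Cxcr2 and Cxcl2. Ccl21a, Ccr4, Cxcl14, Ackr4 and Cx3cl1 move most when NCD replicate 1 is left out.

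Among the CC ligands, 5 of the 19 tested rose. Ccl6 and Ccl9, a pair of neighbouring genes of the rodent lineage whose products bind Ccr1, had the highest levels per kilobase of these. The level of Ccl6 (gene 20305, chr11:83587886-83593087) was 39.9, 132.7 and 159.7 CPM on NCD and 670.2, 924.3 and 1367 CPM on HFD. The level of Ccl9 (gene 20308, chr11:83572917-83578636) was 26.2, 81.7 and 88.8 CPM on NCD and 621.4, 559.9 and 906.5 CPM on HFD. Every HFD mouse lay above every NCD mouse for both genes, and Ccl9 did not share the low position of HFD replicate 1. Ccl6 rose 8.91-fold (log2 fold change 3.16, SE 0.60, adjusted p = 0.0367) and Ccl9 rose 10.6-fold (3.41, SE 0.53, adjusted p = 0.0253).

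Ccl2 (gene 20296, chr11:82035577-82037452), the main ligand of Ccr2, was at 3.81, 11.7 and 9.56 CPM on NCD and at 46.7, 95.3 and 157.8 CPM on HFD. It rose 11.9-fold (log2 fold change 3.58, SE 0.61, adjusted p = 0.0293). The next gene on the chromosome, Ccl7, also a Ccr2 ligand, was at 3.78, 13.7 and 12.4 CPM on NCD and at 24.0, 116.0 and 213.0 CPM on HFD. The diets did not overlap for Ccl7, but its change missed the threshold (3.56, SE 0.90, adjusted p = 0.0650). Ccl8 and Ccl12, which lie in the same group of genes, gave similar pictures. Ccl8 was at 5.21, 12.4 and 8.69 CPM on NCD and at 14.1, 52.0 and 74.2 CPM on HFD (2.41, SE 0.65, adjusted p = 0.0739). Ccl12, a rodent ligand of Ccr2, was at 2.101, 2.58 and 3.09 CPM on NCD and at 1.75, 17.4 and 31.3 CPM on HFD, so that HFD replicate 1 lay below all NCD mice (2.70, SE 0.93, adjusted p = 0.122).

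Ccl3 (gene 20302, chr11:83647843-83649378), a ligand of Ccr1, had the steepest called change. Its level was 0.64, 0.69 and 0.95 CPM on NCD and 4.14, 18.0 and 48.1 CPM on HFD, an 11.6-fold spread between HFD replicates 1 and 3. It rose 30.7-fold (log2 fold change 4.94, SE 0.94, adjusted p = 0.0362). Ccl4, an inflammatory ligand whose annotation overlaps that of Ccl3, was at 1.31, 1.46 and 1.45 CPM on NCD and at 2.93, 15.2 and 32.5 CPM on HFD, and it missed the threshold (3.58, SE 0.84, adjusted p = 0.0559). The sources do not state whether the counting used strand, so reads in the shared stretch cannot be assigned with certainty. Ccl5, a ligand made by T and NK cells, overlapped between the diets, with 9.35, 10.2 and 7.61 CPM on NCD and 10.1, 15.01 and 11.4 CPM on HFD (0.43, SE 0.23, adjusted p = 0.267).

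Ccl22 (gene 20299, chr8:94745684-94751388), a ligand of Ccr4 made by dendritic cells and macrophages, was at 0.67, 1.39 and 1.53 CPM on NCD and at 3.61, 4.89 and 6.92 CPM on HFD. It rose 4.28-fold (log2 fold change 2.096, SE 0.44, adjusted p = 0.0447). Its receptor Ccr4, found on regulatory and type 2 helper T cells, was at 3.84, 0.585 and 0.205 CPM on NCD and at 0.208, 0.348 and 0.112 CPM on HFD, with NCD replicate 1 far above the others (-2.75, SE 1.15, adjusted p = 0.172, and -0.80 without NCD replicate 1). Ccl17, the other Ccr4 ligand, had between 0 and 49 counts per library and overlapped between the diets (adjusted p = 0.792).

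Ccl11, or eotaxin, which attracts eosinophils through Ccr3, was at 7.37, 26.2 and 33.3 CPM on NCD and at 60.2, 59.1 and 45.4 CPM on HFD. In all 6 mice its change missed the threshold (log2 fold change 1.298, SE 0.52, adjusted p = 0.163). Without NCD replicate 1 it rose (0.90, SE 0.18, adjusted p = 0.0255), the smaller change having the smaller error. Ccl24, another eotaxin, had no such difference, at 1.46, 3.80 and 4.61 CPM on NCD and 1.58, 1.61 and 3.62 CPM on HFD (adjusted p = 0.542). Of the other CC ligands tested, Ccl19 (0.78), Ccl25 (0.18), Ccl28 (-0.63) and Ccl27a (-0.98) had small log2 fold changes with adjusted p from 0.110 to 0.782. Ccl27a, which overlaps Il11ra1 in the annotation, was lower in every HFD mouse, at 1.89, 1.71 and 1.29 CPM against 4.11, 2.59 and 2.94 CPM on NCD.

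The Ccl21 genes encode ligands of Ccr7 that are made in lymph nodes and lymphatic vessels, and their near-identical copies share reads, so they are given together as well. The summed counts of Ccl21a to Ccl21d were 1121, 543 and 123 on NCD and 57, 103 and 76 on HFD, or 34.1, 9.08 and 2.29 CPM on NCD against 0.99, 1.23 and 1.21 CPM on HFD. Ccl21a was at 25.6 CPM in NCD replicate 1 and at no more than 0.63 CPM in any other library, and its log2 fold change went from -5.51 (SE 1.85, adjusted p = 0.114) to -1.28 (SE 0.57, adjusted p = 0.164) without that mouse. Ccl21b was at 8.34, 8.61 and 1.62 CPM on NCD and at 0.81, 0.97 and 0.96 CPM on HFD (-2.76, SE 0.65, adjusted p = 0.0570, and -2.46, adjusted p = 0.0531 without NCD replicate 1). The seminal vesicle genes ranked the 3 NCD mice in the same order as the Ccl21 sum did, and markers of B cells and lymph node (7 genes) summed to 6.91, 10.99 and 22.9 CPM on NCD and 8.13, 7.54 and 22.6 CPM on HFD, with none called. Their part in the Ccl21 values was not tested.

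**Figure D2:**
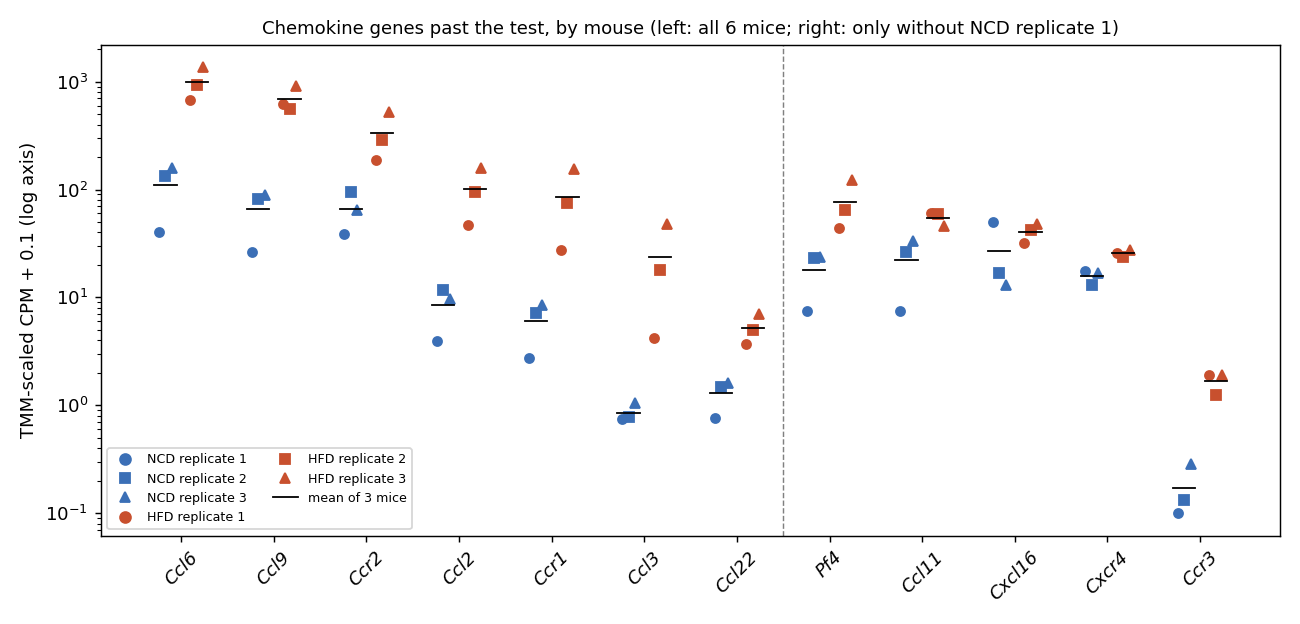
Each point is the TMM-scaled CPM plus 0.1 of a mouse, on a log axis, for members past the threshold in all 6 mice (left of the dashed line) and the 5 that passed it only without NCD replicate 1 (right), with a bar at the mean of the 3 mice of a diet. All HFD points lie above all NCD points except for Cxcl16, where NCD replicate 1 stands at 50.1 CPM, above the HFD mice at 31.6 to 48.1 CPM.

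No CXC ligand passed the test in all 6 mice. The ligands of Cxcr2, which are Cxcl1, Cxcl2, Cxcl3, Cxcl5 and Ppbp, instead split the HFD group. Cxcl2 was at 0.0913, 0.45 and 0.91 CPM on NCD and at 3.50, 50.4 and 187.9 CPM on HFD, 53.7-fold more in HFD replicate 3 than in HFD replicate 1. Cxcl1 was at 0.58, 0.84 and 2.07 CPM on NCD and at 2.57, 21.4 and 36.6 CPM on HFD. These are the genes whose promoters are printed above. The third of them, Cxcl3, had 0, 5 and 6 counts on NCD and 5, 1859 and 4318 counts on HFD, so that it was near 0 in HFD replicate 1 and high in the other HFD mice.

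Cxcl5 had 0, 0 and 29 counts on NCD and 17, 1804 and 3991 on HFD. Ppbp, a platelet and myeloid chemokine, had 0, 12 and 24 counts on NCD and 47, 426 and 1118 on HFD. The receptor showed the same split: Cxcr2 had 0, 12 and 4 counts on NCD and 6, 877 and 1670 on HFD. Cxcr1, the sister receptor, had no counts in any NCD mouse or in HFD replicate 1, and 40 and 22 counts in HFD replicates 2 and 3. In the fit of all 6 mice, the log2 fold changes were 7.32 for Cxcl2 (SE 1.66, adjusted p = 0.0521), 4.11 for Cxcl1 (SE 1.05, adjusted p = 0.0659), 7.22 for Cxcl5 (SE 2.28, adjusted p = 0.101), 5.12 for Ppbp (SE 1.496, adjusted p = 0.0861) and 6.92 for Cxcr2 (SE 1.98, adjusted p = 0.0833). None of these was called, and the standard errors of Cxcl5, Cxcr2, Cxcl2 and Ppbp were, with that of Ccl21a, the 5 largest of the members tested. Cxcl3 and Cxcr1 were removed by the filter on low counts, since they were high in only 2 libraries. Fitted without that filter, Cxcl3 had a log2 fold change of 8.69 (adjusted p = 0.0831). A fit with both NCD replicate 1 and HFD replicate 1 left out, a setting chosen after seeing the data, compared 2 mice with 2. Log2 fold changes there ran from 4.33 for Cxcl1 to 8.84 for Cxcl3 over Cxcr2 and its 5 ligands. The HFD mouse left out was the one in which these genes were low, so that fit cannot serve as a test of them.

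Neutrophil markers moved with these genes. The summed level of 8 neutrophil genes was 4.202, 9.47 and 6.77 CPM on NCD and 20.6, 148.4 and 400.9 CPM on HFD. Of the 4 that could be tested, Csf3r passed (log2 fold change 3.71, adjusted p = 0.0495), and S100a8 (5.74, adjusted p = 0.0508), S100a9 (8.07, adjusted p = 0.0739) and Mmp8 (6.75, adjusted p = 0.0604) did not. Ly6g, Camp and Mpo, which define neutrophils and their precursors, were at or below 0.261 CPM in every library. Macrophage markers did not split the HFD mice in that way: the sum of 10 genes was 422.3, 947.4 and 894.2 CPM on NCD and 3684, 2400 and 3062 CPM on HFD, with its highest value in HFD replicate 1. The part of either cell type in the chemokine values was not tested.

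**Figure D3:**
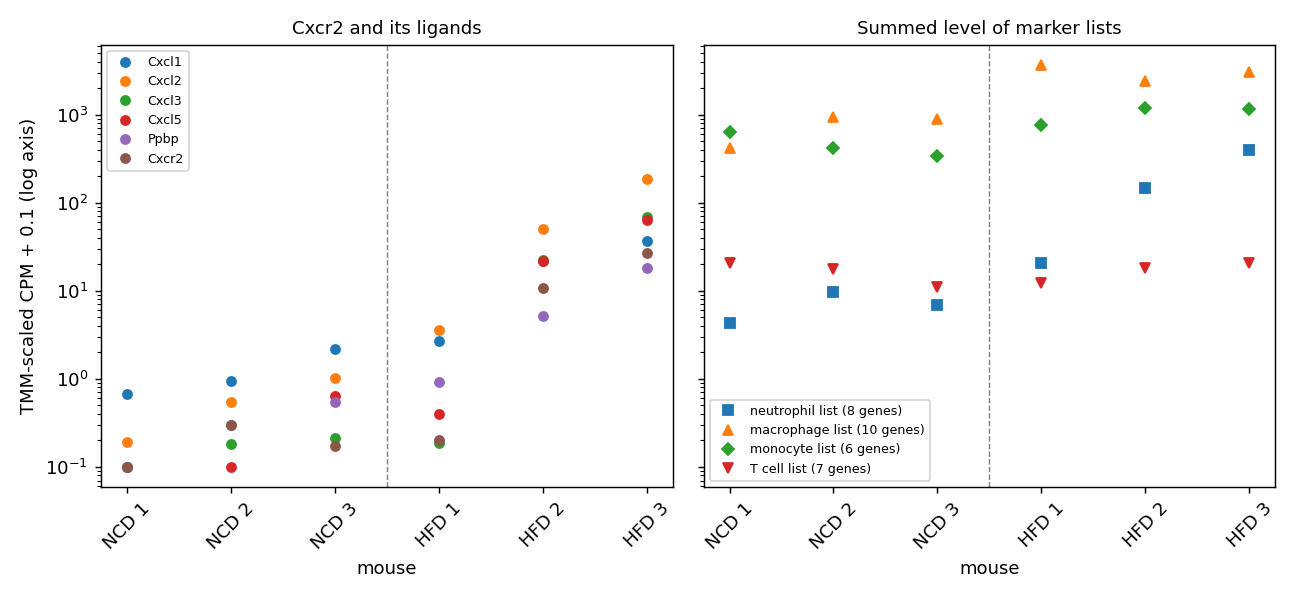
Points give the TMM-scaled CPM plus 0.1, on a log axis, of Cxcr2 and its 5 ligands (left) and the summed TMM-scaled CPM plus 0.1 of 4 marker lists (right), by mouse. In the left panel HFD replicate 1 lies below HFD replicates 2 and 3 for every gene. It is within the NCD range for Cxcl3, Cxcl5 and Cxcr2 and above all NCD mice for Cxcl1, Cxcl2 and Ppbp. In the right panel the neutrophil sum goes from 20.6 CPM in HFD replicate 1 to 400.9 CPM in HFD replicate 3, and the macrophage sum is highest, at 3684 CPM, in HFD replicate 1.

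Pf4, the platelet factor that macrophages also make, is a neighbour of Ppbp but differed from it. It was at 7.43, 23.1 and 23.5 CPM on NCD and at 43.6, 64.4 and 121.1 CPM on HFD, with no overlap. Its log2 fold change was 2.08 (SE 0.57, adjusted p = 0.0760) in all 6 mice, and it rose without NCD replicate 1 (1.73, SE 0.45, adjusted p = 0.0470). Platelet genes were low, with 6 markers summing to 20.2, 9.30 and 6.42 CPM on NCD and 9.45, 17.4 and 13.6 CPM on HFD and none of the 3 tested called. Cxcl16, a membrane-bound ligand of Cxcr6, was at 50.1, 16.8 and 12.8 CPM on NCD and at 31.6, 42.3 and 48.1 CPM on HFD. Its change was 0.62 (SE 0.53, adjusted p = 0.468) with all mice and 1.48 (SE 0.23, adjusted p = 0.0138) without NCD replicate 1, which alone held the highest level. Cxcr6 itself was at 1.66 to 3.44 CPM in all libraries (adjusted p = 0.680).

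Cxcl12, the stromal ligand of Cxcr4, was at 111.7, 184.2 and 196.1 CPM on NCD and at 194.9, 401.2 and 562.0 CPM on HFD, where HFD replicate 1 lay within the NCD range (log2 fold change 1.23, SE 0.44, adjusted p = 0.127). The ligands of Cxcr3, which interferon-gamma induces, were not called in either fit. Cxcl9 was at 17.1, 51.9 and 52.4 CPM on NCD and at 38.8, 42.3 and 41.9 CPM on HFD (0.02, SE 0.42, adjusted p = 0.983), and Cxcl10 was at 8.34, 14.5 and 7.63 CPM on NCD and at 8.25, 20.8 and 20.6 CPM on HFD (0.70, SE 0.44, adjusted p = 0.326). Cxcl11, which the annotation of this strain lists as a transcribed pseudogene, had 2 to 22 counts per library. Cxcr3 was at 1.95 to 4.22 CPM (adjusted p = 0.387).

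The B cell attractant Cxcl13 was scattered over both diets, at 1.86, 5.64 and 23.4 CPM on NCD and 0.81, 9.48 and 28.5 CPM on HFD, and so was its receptor Cxcr5, at 0.365, 0.736 and 1.56 CPM on NCD and 0.555, 0.575 and 2.07 CPM on HFD. Both were highest in replicate 3 of each diet, as was the sum of the B cell and lymph node markers given above; the part of those cells was not tested. Cxcl14 was highest in NCD replicate 1, at 23.5 CPM against 5.30 and 3.81 CPM in the other NCD mice and 5.51, 10.8 and 20.5 CPM on HFD. Cx3cl1, a ligand held on the surface of endothelial and epithelial cells, was at 27.9, 7.58 and 4.32 CPM on NCD and at 6.47, 5.75 and 3.35 CPM on HFD (log2 fold change -1.35, SE 0.72, adjusted p = 0.261). Without NCD replicate 1 its change was -0.18 (adjusted p = 0.755). In all, 9 of the 53 members had their highest level in NCD replicate 1 and 28 in HFD replicate 3. The 9 were Cx3cl1, Ccl21a, Ccl27a, Cxcl14, Cxcl16, Ackr4, Ccr4, Cx3cr1 and Xcr1. The same was not counted over all genes. The seminal vesicle genes were also highest in NCD replicate 1, and their part in the values of these 9 members was not tested. Xcl1, the C ligand of NK and T cells, was at 0.56 to 1.57 CPM (adjusted p = 0.688).

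Among the 16 receptors tested, Ccr1 and Ccr2 rose. Ccr2 (gene 12772, chr9:124101918-124109140), the receptor of inflammatory monocytes, was at 38.4, 94.0 and 64.7 CPM on NCD and at 186.2, 288.1 and 525.3 CPM on HFD. It rose 5.07-fold (log2 fold change 2.34, SE 0.50, adjusted p = 0.0471). Ccr1 (gene 12768, chr9:123962126-123968692), which binds Ccl3, Ccl6 and Ccl9 among others, was at 2.62, 7.04 and 8.34 CPM on NCD and at 27.5, 74.1 and 154.2 CPM on HFD. It rose 14.2-fold (3.82, SE 0.76, adjusted p = 0.0413).

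For both receptors the diets did not overlap, and HFD replicate 1 was the lowest and HFD replicate 3 the highest of the HFD mice. Without HFD replicate 1, the adjusted p of the 8 members called in all 6 mice was between 0.0548 for Ccl3 and 0.0805 for Ccl22. Macrophage markers were higher on HFD too, with Adgre1, Cd68, Itgam and Fcgr1 of the 10 passing in all 6 mice and 9 of 10 without NCD replicate 1, but their order over the HFD mice was different. A ratio to Adgre1, the gene of the F4/80 antigen, was therefore taken within each library; it was chosen after the values were seen and is a description. There were 1.51, 1.64 and 1.79 counts of Ccr2 for each count of Adgre1 on NCD and 0.45, 1.37 and 2.26 on HFD, so that HFD replicate 1 was below and HFD replicate 3 above the NCD mice. For Ccl6 the ratio was 1.56, 2.32 and 4.41 on NCD and 1.60, 4.39 and 5.87 on HFD. The same ratio was taken for Ccl2, Ccl3, Ccl9 and Ccr1, where HFD replicates 2 and 3 lay above all NCD mice. HFD replicate 1 lay below all NCD mice for Ccl2, Ccl3 and Ccr1 and within their range for Ccl9. The ratio to Adgre1 thus differed between mice for each of these genes, and the part of macrophage number was not tested.

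Ccr3, the receptor of eosinophils, had 0, 2 and 10 counts on NCD and 104, 96 and 114 counts on HFD. The HFD mice were close to each other and far from the NCD mice. Its change just missed the threshold with all mice (log2 fold change 4.32, SE 0.98, adjusted p = 0.0524) and passed without NCD replicate 1 (3.86, SE 0.78, adjusted p = 0.0247). The filter on low counts kept Ccr3 only through the HFD mice, where it was high. These values are thus a description and not a test. Cxcr4 was at 17.4, 13.03 and 16.8 CPM on NCD and at 26.0, 23.7 and 27.4 CPM on HFD, a small difference with little spread (0.70, SE 0.17, adjusted p = 0.0610). Without NCD replicate 1 it rose (0.80, SE 0.17, adjusted p = 0.0264).

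The remaining receptors gave no call in either fit. Ccr7, which guides dendritic cells and T cells to lymph nodes, was at 1.52, 1.67 and 1.75 CPM on NCD and at 1.94, 6.37 and 4.30 CPM on HFD (log2 fold change 1.35, SE 0.46, adjusted p = 0.119). Ccr9, a receptor of gut-homing T cells, was at 0.33, 0.27 and 0.17 CPM on NCD and at 0.35, 0.50 and 1.31 CPM on HFD (adjusted p = 0.183). Ccr6 and Ccr10 had at most 46 and 18 counts in any library. Cx3cr1, a receptor of patrolling monocytes and resident macrophages, was at 12.1, 6.17 and 3.05 CPM on NCD and at 9.26, 7.25 and 9.66 CPM on HFD (0.30, SE 0.49, adjusted p = 0.714). Xcr1, a marker of cross-presenting dendritic cells, was at 0.97 to 2.86 CPM (adjusted p = 0.706). Monocyte markers, 6 genes with none called in all 6 mice and 1, Fn1, called as higher without NCD replicate 1, summed to 639.1, 416.7 and 335.3 CPM on NCD and 764.9, 1184 and 1166 CPM on HFD. T cell markers, 7 genes with none called, summed to 11.1 to 20.4 CPM on NCD and 12.2 to 20.8 CPM on HFD, and dendritic cell markers, also 7 with none called, to 21.3 to 30.1 CPM on NCD and 28.3 to 37.2 CPM on HFD.

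The atypical receptors had positive log2 fold changes in the fit of all 6 mice but none passed. Ackr1, a carrier of chemokines on venules and red cells, was at 2.80, 6.91 and 5.01 CPM on NCD and at 10.1, 12.99 and 21.3 CPM on HFD (1.59, SE 0.43, adjusted p = 0.0760). Ackr3, which takes up Cxcl12, was at 20.4, 40.8 and 35.2 CPM on NCD and at 48.5, 85.8 and 69.5 CPM on HFD (1.08, SE 0.33, adjusted p = 0.0926). Both were above the NCD range in every HFD mouse. Ackr2, a scavenger of inflammatory CC ligands (0.92, adjusted p = 0.222), and Ackr4, a scavenger of Ccl19 and Ccl21 (0.07, adjusted p = 0.959), overlapped between the diets, and without NCD replicate 1, where Ackr4 was highest at 4.598 CPM, its change was 1.27 (adjusted p = 0.0791). Endothelial markers, 6 genes with none called in all 6 mice and 1, Pecam1, called as higher without NCD replicate 1, summed to 240.4, 712.9 and 811.7 CPM on NCD and 948.9, 806.5 and 806.7 CPM on HFD.

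A total of 8 members were removed by the filter on low counts in the fit of all 6 mice. Ccl21c, Ccl21d, Ccl27b, Cxcl17 and Ccr8 had fewer than 10 counts in every library. Ccl1 had no counts in the NCD mice and 4, 10 and 0 counts on HFD. Cxcl3 and Cxcr1 are described above. The filter kept both without NCD replicate 1 and without HFD replicate 1, but only through the HFD libraries in which they were high. The log2 fold change of Cxcl3 was 8.29 without NCD replicate 1 and 9.27 without HFD replicate 1. Because of the way these genes entered, the values are a description and not a test.

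Levels were compared between genes only per length, as TMM-scaled CPM per kilobase of exon, for the 59 members with an exon length. The ligands summed to 226.8, 363.1 and 371.0 on this scale on NCD and to 1018, 1666 and 2707 on HFD. Ccl6 had the highest level of all ligands in 5 of the 6 mice, with Ccl21a ahead of it in NCD replicate 1. Ccl6 and Ccl9 together held 16.0%, 32.9% and 37.9% of the ligand sum on NCD and 66.0%, 49.7% and 46.2% on HFD, so that the largest share was in HFD replicate 1, where the ligand sum was the smallest of the HFD mice. Among the receptors, atypical ones included, Ccr2 was the highest in every HFD mouse, at 27.5, 42.6 and 77.7 per kilobase, whereas Cxcr4, Ccr2 and Ackr3 led in NCD replicates 1, 2 and 3. With the atypical receptors left out of the sum, Ccr1 and Ccr2 together made up 24.6%, 47.6% and 41.2% of the receptor level on NCD. On HFD they made up 50.3%, 57.9% and 66.1% of it. These shares are a description of 6 libraries and were not tested.

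**Figure D4:**
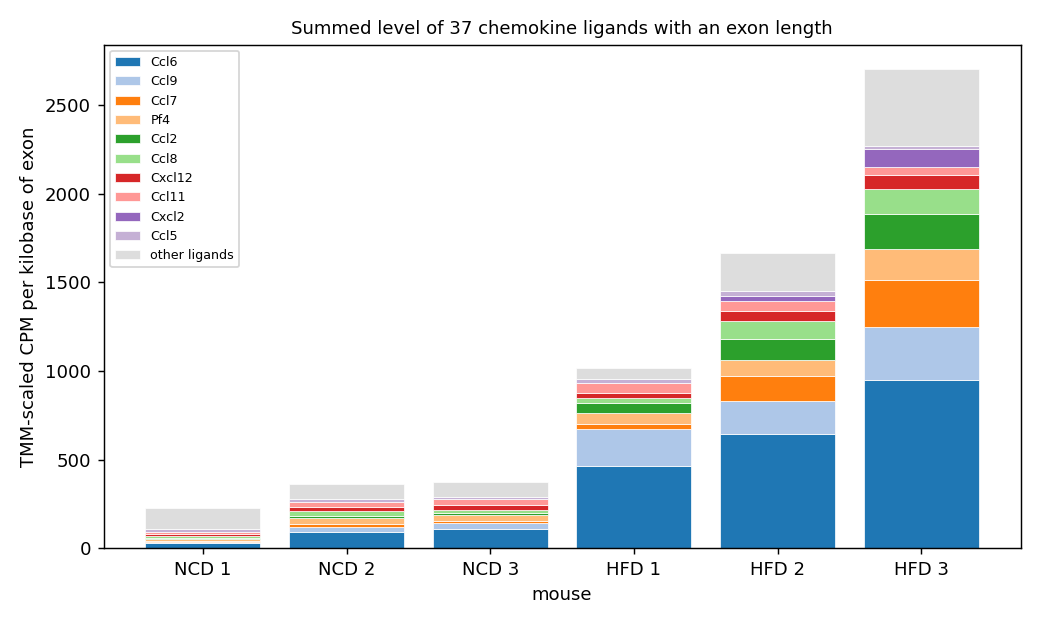
Bars stack the level of the 37 ligands with an exon length in each mouse, in TMM-scaled CPM per kilobase of exon, with the 10 highest ligands in colour and the others in grey. The whole bar goes from 226.8 in NCD replicate 1 to 2707 in HFD replicate 3, and Ccl6 is the largest coloured block in every HFD mouse.

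Many members sit side by side in the genome, and neighbours did not always differ alike. On chromosome 11, Ccl2, Ccl7, Ccl11, Ccl12, Ccl8 and Ccl1 lie within 144 kb (chr11:82035577-82179812, GRCm38.p6), and Ccl2 was the only called gene of this group, with log2 fold changes from 1.298 for Ccl11 to 3.58 for Ccl2. The group of Ccl5, Ccl9, Ccl6, Ccl3 and Ccl4 (chr11:83525778-83664683) held 3 called genes, Ccl9, Ccl6 and Ccl3, beside Ccl5 at 0.43. The group of Cxcl5, Ppbp, Pf4, Cxcl3, Cxcl1 and Cxcl2 on chromosome 5 (chr5:90759298-90905938) had log2 fold changes of 2.08 to 7.32 in the 5 genes tested and no call. The other group on chromosome 5, with the interferon-induced ligands Cxcl9, Cxcl10 and Cxcl11 (chr5:92321331-92363296), ranged from -0.47 to 0.70. On chromosome 9, Ccr1, Ccr3 and Ccr2 stand in a row with 2.34 to 4.32, after Ccr9 (1.49), Cxcr6 (0.25) and Xcr1 (-0.28) in the same 342 kb (chr9:123767211-124109140).

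**Figure D5:**
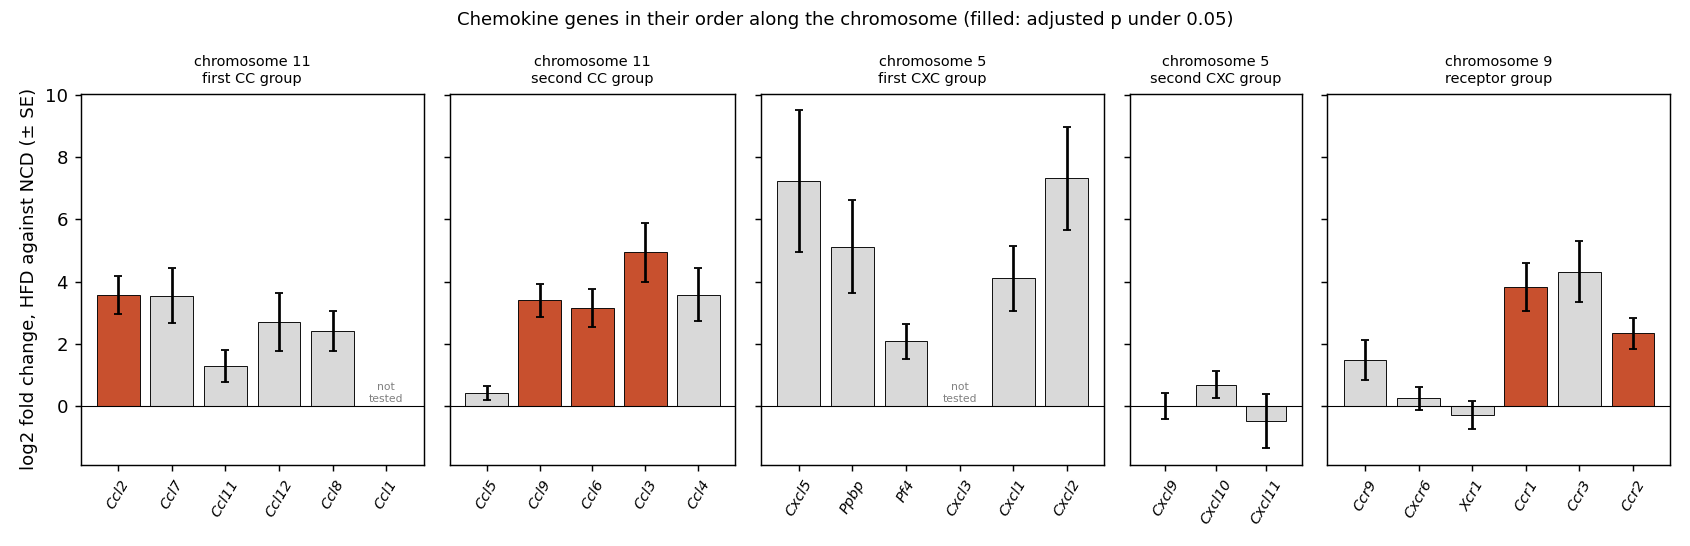
Bars give the log2 fold change, HFD against NCD, with its standard error in all 6 mice for members that lie together on a chromosome, in chromosomal order, filled red for an adjusted p below 0.05. Red bars appear in the first and second CC groups of chromosome 11 and in the receptor group of chromosome 9; the Cxcl9, Cxcl10 and Cxcl11 bars stay between -0.47 and 0.70.

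The machinery through which chemokine receptors act was looked at with a list of 36 genes. Of these, 15 rose with HFD and none fell, where 5.58% of all genes tested were higher, and without NCD replicate 1 the numbers were 24 and 0, where 10.7% of all genes were higher. The median log2 fold change over the 36 genes was 1.11. Among 20 genes of receptor signalling and cell movement, 12 rose, with a median log2 fold change of 1.75. Among 16 genes of receptor desensitisation and ligand processing, 3 rose, with a median of 0.72. The largest change was that of Rgs1, which ends G protein signals at chemokine receptors, at 2.56, 3.46 and 3.01 CPM on NCD and 90.4, 28.4 and 28.2 CPM on HFD (4.02, SE 0.56, adjusted p = 0.0223). Here HFD replicate 1 was the highest mouse, unlike for most chemokine genes.

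Pik3r5, the regulatory subunit of the PI 3-kinase that G protein-coupled receptors activate, was at 7.03, 11.4 and 10.4 CPM on NCD and at 96.0, 66.3 and 98.9 CPM on HFD (log2 fold change 3.18, SE 0.27, adjusted p = 0.0192). Gpr35, proposed as a receptor of chemokine and metabolite ligands, rose by a log2 fold change of 3.16 (adjusted p = 0.0300). The myeloid Src-family kinase Fgr (2.94) rose, as did Vav1 (2.61) and Dock2 (2.29), exchange factors for Rac, Was (2.19) and Coro1a (2.08), regulators of actin in leukocytes, and Plcb2 (2.06), the phospholipase C of leukocyte chemoattractant receptors, with adjusted p from 0.0219 to 0.0462. The general G protein subunits Gnai3 (-0.19), Gnb1 (0.08) and Gnb2 (0.03), which most cells express, had adjusted p from 0.676 to 0.930. Many of the genes that rose are leukocyte genes, as the macrophage markers are, and the part of leukocyte number was not tested. Of the remaining marker lists, NK cells had 1 of 6 called (Gzma), stromal progenitors 1 of 6 (Col1a1), mesothelium 1 of 5 (Msln), adipocytes 0 of 6, and seminal vesicle secretory genes 9 of 11 called as lower in all 6 mice. Without NCD replicate 1, 3 of the 6 adipocyte genes (Plin1, Pparg and Lipe) were called as lower, with a median log2 fold change of -0.85 over the list, and so were all 11 seminal vesicle genes.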

How the data were processed

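RNA from gWAT of 6 wild-type mice was made into libraries with a stranded TruSeq mRNA kit and sequenced on a NovaSeq instrument, per the labels and the methods of the study. The deposited values were raw counts per gene made by the authors; their processing notes name bcl2fastq 2.20.0, Trimmomatic, HISAT2 2.1.0, StringTie 1.3.4d, DESeq2 and the builds mm10 and GRCm38, with no role or order; neither source states the annotation or the strand setting. Symbols were paired with 19742 of 19790 gene identifiers through RefSeq (GRCm38.p6), and exon lengths with 17793. Of the symbols that the rule covers in that reference, 7 had no row and were not analysed here. A few genes that entered the counts are not reported here.

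Counts were scaled by TMM and tested with edgeR 4.0.16 (R 4.3.3; glmQLFit and glmQLFTest, diet as the only term, all 6 mice). filterByExpr (at least 10 counts in a library of median size in enough libraries, and 15 in all) kept 15241 genes, and Benjamini-Hochberg adjustment ran over all of them with a threshold of 0.05. The SE was obtained as the absolute log2 fold change over the square root of F. The common biological coefficient of variation was 0.424, and 0.288 without NCD replicate 1. p-values measure the spread between 3 replicates per diet. The steps were tested on simulated counts. Named are all members called in all 6 mice or without NCD replicate 1, the 10 members with the highest mean level per kilobase (the count table holds no FPKM) and the partners of named ligands and receptors; of the signalling lists, up to 10 called genes by size; marker lists by sums and counts. Members and lists were chosen with earlier results of these data known. Alternatives were DESeq2 1.42.0, other scalings, no filter, a replicate block and each mouse left out. Libraries of a diet differed beyond counting error (chi-square over its degrees of freedom at least 116), so none was treated as a repeat. Figures were drawn with matplotlib 3.10.9.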

Additional observations from a re-analysis of the deposited data

How the results depend on the processing

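The 8 members called in all 6 mice kept their direction under all 13 alternatives. Across the single-mouse omissions, members called ranged from 0 to 13, signalling genes from 0 to 24 and all genes from 2 to 3234; the largest of each came without NCD replicate 1, and every omission of another mouse gave 0 members and 0 signalling genes (unadjusted p under 0.05 in 21 to 30 and in 22 to 23). The 30 came without HFD replicate 1 and held Cxcl3 and Cxcr1, which are no test because of the way they entered. DESeq2 called 3904 genes, 55.1% of them higher, and 26 members (37 genes had no adjusted p), against 1139 genes, 74.6% higher, in edgeR. With NCD replicate 1 and HFD replicate 1 both left out, a setting chosen after seeing the data, 3865 genes, 29 members and 23 signalling genes were called. HFD replicate 1 was the lowest HFD mouse for most members, so this setting is no test of them. With the replicate number as a block, 12 genes, 0 members and 0 signalling genes were called (3571, 25 and 23 at an unadjusted p under 0.05). Same-numbered mice of the diets did not deviate together (r = -0.06, -0.05 and 0.01), so no pairing by number was seen. That cannot settle whether the mice were paired, as there were 3 per diet and the column header of HFD replicate 3 carries another number. Ccl22 and Ccr2 also missed the threshold without the filter on low counts and with total counts. Without the filter, 6 of 61 members were called, all higher, where 644 of 19056 genes were higher and 159 lower. With total counts, 9 of 53 members were called, all higher, where 748 of 15241 genes were higher and 211 lower. Under that scaling the median log2 fold change over all genes became 0.45 in place of -0.08. Median-of-ratios scaling and TMM without the seminal vesicle genes left 8 of 53 members, where 850 of 15241 and 864 of 15251 genes were higher. The sign of 11 uncalled members changed: with total counts, Cxcl11 was 0.049 and Xcr1 0.40; with the block, Cxcl13 was -0.0023; with both mice left out, Cxcl9 was -0.31 and Xcr1 0.15. Over the single-mouse omissions, the log2 fold change ran from -0.42 to 1.14 for Ccl17, -0.038 to 0.55 for Ccl25, -0.87 to 0.27 for Cxcl11, -0.997 to 1.79 for Cxcl13, -0.38 to 1.45 for Cxcl14, -0.33 to 0.26 for Cxcl9, -0.32 to 1.27 for Ackr4, -0.22 to 2.08 for Ccr6, -0.044 to 0.93 for Cx3cr1, -0.65 to 0.95 for Cxcr5 and -0.57 to 0.18 for Xcr1. The cause of these changes was not tested. Depth limits members under 10 counts, and 3 mice per diet limit all others.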
